A study of Mus musculus with 6 samples.

Results

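The transcription factors Gata1, Gata2, Tal1 and Lyl1 and the proteins that join them on DNA were followed here in sorted fetal liver cells labelled as Eklf knockout or wild type. The set holds 10 genes, Gata1, Gata2, Zfpm1, Tal1, Lmo2, Ldb1, Lyl1, Gfi1b, Nfe2 and Cbfa2t3, out of 18193 genes that some probe set of the array reads alone. It was read through every probe set listed to one of these genes alone, 15 of 45101 in all. No member was listed on a probe set shared with another gene, and all 15 passed the filter on dim signals, a mean log2 signal of at least 6.62, which is a signal of 98.6.

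Gata1 and Gata2 are zinc finger factors that bind GATA motifs in DNA. In maturing red cells Gata1 takes over sites held earlier by Gata2, an exchange that accompanies the silencing of the Gata2 gene itself. Tal1 is a basic helix-loop-helix factor that binds E-box motifs with an E protein, and Lmo2 and Ldb1 bridge it to Gata1 in a single complex over erythroid enhancers. Eklf, whose gene symbol is Klf1, is a zinc finger factor that binds CACCC motifs and works beside this complex at many red cell genes.

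The data were 3 arrays of RNA from fetal livers homozygous for the Eklf knockout, and the controls were 3 arrays from wild-type livers. All came from embryonic day 13.5 and all were labelled C57BL/6; the labels trace the knockout line to targeting clones from a library of another mouse strain. Early erythroid progenitors were sorted, per the labels' protocols, by CD71, the transferrin receptor, and Ter119, a red cell surface antigen, with 7AAD to mark dying cells. The gates set on these stains are not known here. The labels name a separate liver for each array, while litters and hybridisation batches are not stated, so a batch and the genotype cannot be told apart.

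Signals are MAS5 intensities on a linear scale, with the trimmed mean of each array at 500. The median signal was 204 to 218 on the knockout arrays and 97.7 to 140 on the wild-type arrays, with wild-type array 3 the lowest. Arrays resembled each other more within a genotype (r of 0.897 to 0.906 among knockout and 0.922 to 0.944 among wild-type arrays, on log2 signals) than across genotypes (0.822 to 0.858). The targeted gene did not separate the genotypes. Klf1 gave signals of 3505, 1391 and 2545 on the knockout arrays, against 2508, 2706 and 4030 on the wild-type arrays. Its log2 difference was -0.38 (SE 0.32; adjusted p = 0.347, limma), and the exact permutation test gave p = 0.5, where 0.1 is the smallest value that 3 against 3 arrays allow. Whether this probe set lies inside the deleted part is not stated, so the genotypes are those of the labels.

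Gata1, its cofactor Zfpm1, Tal1 and the repressor Gfi1b rose in Eklf knockout cells, each by 3.21- to 3.71-fold, while Gata2 and Lmo2 fell by smaller amounts. Ldb1, Lyl1, Nfe2 and Cbfa2t3 did not pass the test. A gene was called at an adjusted p under 0.05, adjusted by the Benjamini-Hochberg method over the 12799 genes tested with limma, each at its brightest probe set. Of the 10 members, 4 rose (40%), where 27.9% of all genes tested were called higher, and 2 fell (20%), where 20.8% were called lower. The share that fell was thus near the background and is not a result about these genes. The share that rose was above the background, but with only 10 genes it is not read as a result about the set either. At a change of 2-fold or more, 4 members were higher against 20.5% of all genes, and 0 were lower against 11% of all genes. All 3 knockout signals lay above all 3 wild-type signals for 5 members and below them for 4, where 34.1% and 25.2% of all genes did so. In either direction, 6 of 10 members were called, against 48.7% of all genes, and 9 had groups apart, against 59.3%. The median log2 difference of the 10 genes was 0.06, beside 0.14 for all genes tested. The count of genes that fell was 0 without knockout array 2 and 1 without knockout array 3, wild-type array 1 or wild-type array 2. Without knockout array 1 it was 2, with Cbfa2t3 called in place of Gata2.

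**Figure D1:**
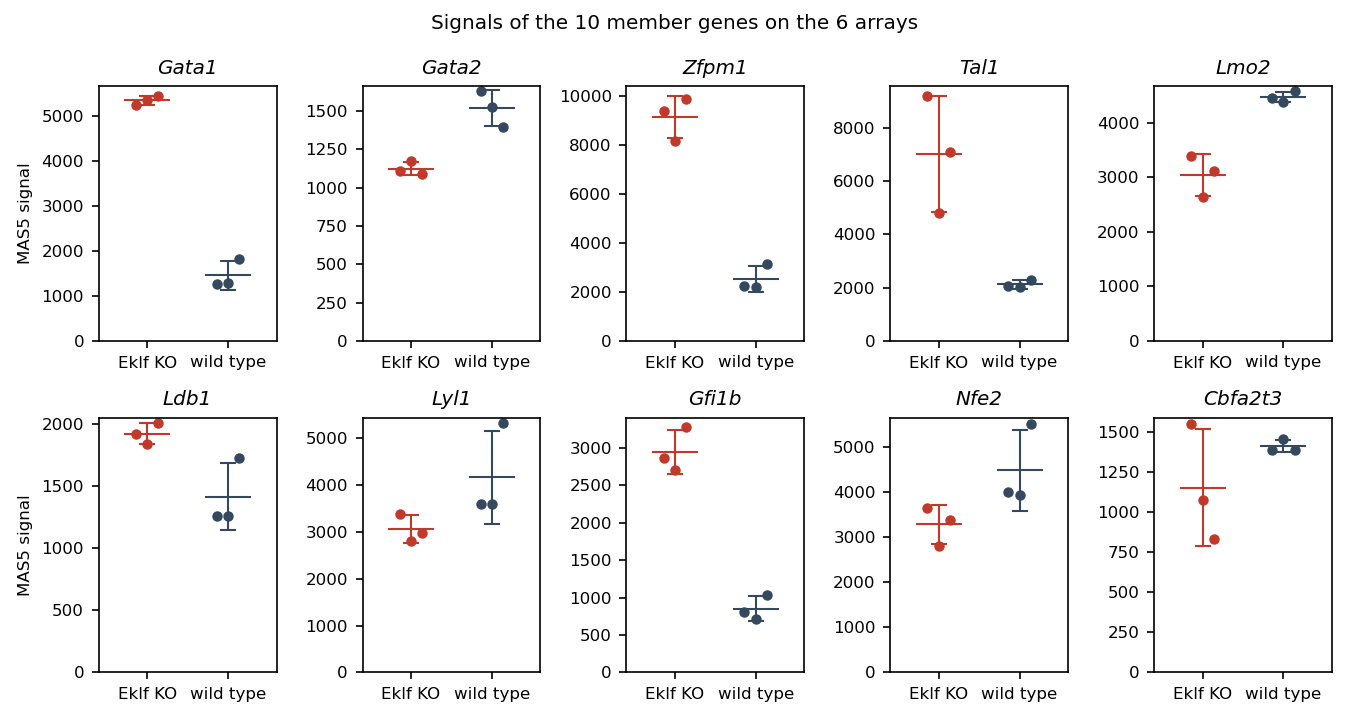
MAS5 signal (linear axis from 0, arbitrary intensity units) of each member gene at its brightest probe set, with 1 point per array, the 3 Eklf knockout arrays on the left and the 3 wild-type arrays on the right; the horizontal line is the mean and the bars are 1 SD (n = 3). The groups stand farthest apart for Gata1, Zfpm1, Tal1 and Gfi1b, and only Cbfa2t3 has overlapping groups.

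Other cell types can carry these transcripts, since megakaryocytes express Gata1, Zfpm1, Tal1, Gfi1b and Nfe2, mast cells express Gata2 and Gata1, and endothelium expresses Gata2, Tal1, Lmo2 and Lyl1. Of 10 tested megakaryocyte markers 9 were higher on the knockout arrays, with summed signals of 34830 to 45160 there and 8098 to 9380 on the wild-type arrays. Of 10 endothelial markers 7 were higher, with sums of 5379 to 7328 in knockout and 1902 to 2487 in wild-type samples. Mast cell and basophil markers went the other way: 4 of 6 tested were lower, and the 9 with a probe set summed to 1634 to 1724 on knockout and 7030 to 7885 on wild-type arrays. Hepatocyte markers were higher in 10 of 10. Macrophage markers were higher in 7 of 8, with Csf1r called lower (log2 difference -1.06). Lymphoid markers were lower in 7 of 9, with Dntt called higher (1.99). Dntt was dim, with a mean of 223 in knockout and 64.6 in wild-type samples, the latter under the filter signal of 98.6. Sums in knockout and wild-type samples were 99570 to 170000 and 7831 to 8487 for hepatocyte markers. They were 11990 to 15890 and 10020 to 12150 for macrophage markers, and 912 to 1593 and 22040 to 32780 for lymphoid markers. Stem and progenitor markers were lower in 6 of 10 and higher in 2, with sums of 7168 to 9215 in knockout and 26260 to 28250 in wild-type samples. Neutrophil markers were lower in 7 of 10, with sums of 96940 to 201300 in knockout and 187400 to 219600 in wild-type samples, so they were bright in both groups. Erythroid markers were bright in both groups and higher in 8 of 9, with sums of 69240 to 94390 in knockout and 22120 to 23140 in wild-type samples. Among them, and named after their values were seen, the adult beta-globin gene Hbb-b2 was 4.91-fold higher in knockout samples. Epb42 was 5.50-fold and Slc4a1 3.79-fold higher. Ermap did not pass, and 0 erythroid markers were lower. Eklf works at many red cell genes, and the bearing of these values on the genotype labels was not tested. No marker was listed at 0. The part of these cells in the member results was not tested. In bulk RNA, fewer cells of a type and less RNA per cell cannot be told apart.

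The promoters of the 4 genes that rose together are shown because Eklf binds CACCC motifs and Gata1 binds GATA motifs. Each is the 250 bases before a RefSeq start site on GRCm38.p6, read 5′ to 3′ on the gene's strand. Gata1 lies at chrX:7967911-7968160 on the minus strand, Zfpm1 at chr8:122281891-122282140 on the plus strand, the first of the Tal1 windows at chr4:115056176-115056425 on the plus strand, and Gfi1b at chr2:28621983-28622232 on the minus strand. Capitals mark GATA motifs on either strand. Their letters are AGATAA as well as the variant AGATAG, then the forms beginning with the other base, TGATAA and likewise the variant TGATAG. Capitals also mark matches to the looser pattern CCNCNCCC on either strand, called CACCC matches here. This pattern also takes GC-rich stretches that lack the letters CACCC. Some CACCC letters in the windows do not match it and stay unmarked.
Gata1: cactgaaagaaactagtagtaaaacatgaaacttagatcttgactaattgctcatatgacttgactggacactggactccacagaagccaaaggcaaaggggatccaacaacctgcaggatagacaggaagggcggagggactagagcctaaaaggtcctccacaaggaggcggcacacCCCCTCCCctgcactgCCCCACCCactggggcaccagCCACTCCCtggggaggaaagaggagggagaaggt
Zfpm1: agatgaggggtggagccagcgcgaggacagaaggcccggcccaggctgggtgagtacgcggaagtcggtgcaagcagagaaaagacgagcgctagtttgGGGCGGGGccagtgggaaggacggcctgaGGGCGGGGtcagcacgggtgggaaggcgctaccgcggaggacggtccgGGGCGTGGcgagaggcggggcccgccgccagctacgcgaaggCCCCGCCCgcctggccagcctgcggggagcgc
Tal1: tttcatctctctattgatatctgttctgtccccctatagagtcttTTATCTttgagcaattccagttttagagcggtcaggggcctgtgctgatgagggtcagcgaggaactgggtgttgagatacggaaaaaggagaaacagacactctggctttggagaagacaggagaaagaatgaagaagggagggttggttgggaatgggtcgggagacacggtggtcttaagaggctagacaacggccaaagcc
Gfi1b: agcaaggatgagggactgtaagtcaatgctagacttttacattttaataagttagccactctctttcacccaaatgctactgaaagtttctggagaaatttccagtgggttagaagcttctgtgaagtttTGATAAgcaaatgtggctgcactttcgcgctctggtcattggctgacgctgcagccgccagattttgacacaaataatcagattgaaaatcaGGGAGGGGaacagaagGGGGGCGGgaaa
The Gata1 window held 3 CACCC matches, starting 71, 55 and 34 bases before the start site, and no GATA motif. Of these, only the match at 55 bases holds the letters CACCC. In Zfpm1 there were 4 CACCC matches, none with the letters CACCC themselves, and no GATA motif. The Tal1 window held a single GATA motif 205 bases before the start site and no CACCC match, while the other Tal1 window held 4 CACCC matches that partly overlap. Gfi1b had a GATA motif 120 bases and CACCC matches 28 and 12 bases before its start site. Both of these matches also lack the letters CACCC. RefSeq gave 13 windows for 8 of the members. A CACCC match lay in 12 of these 13, against 45.9% of all 32851 windows of this length. Gata2 and Lyl1 windows are among them, where a run of a single base matches several times over. Many of the matches are GC-rich stretches without the letters CACCC, so these shares are not shares of windows that hold those letters. GATA motifs lay in 4 of 13, against 26.5%, E-boxes (CANNTG) in 6 of 13, against 66.2%, and the Nfe2 motif TGAGTCA in 0 of 13, against 4.46%. These matches describe letters in a short window and say nothing on binding in these cells.

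Gata1 is the GATA factor of maturing red cells. Its signals were 5243, 5353 and 5452 on the knockout arrays, against 1265, 1290 and 1830 on the wild-type arrays. The lowest knockout value was well above the highest wild-type value, and Gata1 averaged 5349 ± 104 in knockout and 1462 ± 320 in wild-type cells (SD, n = 3 each). That is a 3.71-fold higher level, with a log2 difference of 1.89 (SE 0.18; adjusted p = 5.16e-05, limma).

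Gata2, which acts in stem and progenitor cells, had 2 probe sets and both were lower in knockout cells. The brighter one gave 1109, 1173 and 1093 on the knockout arrays and 1630, 1530 and 1395 on the wild-type arrays. The groups did not overlap, but the gap was small: the fold was 1.35 and the log2 difference -0.43 (SE 0.15; adjusted p = 0.0414, limma). The other gave 391, 381 and 360 on the knockout arrays and 744, 671 and 722 on the wild-type arrays. This dimmer probe set showed the larger gap, 1.89-fold lower with a log2 difference of -0.92 (SE 0.19; adjusted p = 0.00563 over the 27023 probe sets tested, limma). The call of the brighter probe set did not survive leaving out any single array other than wild-type array 3 (5 of 6 fits), with adjusted p from 0.0687 without knockout array 1 to 0.157 without wild-type array 1. The call of the dimmer one held in all 6.

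Zfpm1, also called Fog1, is the zinc finger cofactor that binds Gata1 and is needed for much of its action. Its brighter probe set gave 9364, 8172 and 9856 on the knockout arrays, against 2241, 2193 and 3120 on the wild-type arrays. The lowest knockout value lay far above wild-type array 3, the highest control, and the log2 difference was 1.87 (SE 0.18; adjusted p = 5.91e-05, limma). The second Zfpm1 probe set gave 2794, 1910 and 2694 on the knockout arrays and 367, 439 and 563 on the wild-type arrays. Here the fold was larger, 5.41 against 3.66, and both probe sets come from the same listed sequence record.

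Among the helix-loop-helix factors, Tal1 rose and its paralog Lyl1 did not pass the test. Tal1 gave 9172, 4819 and 7087 on the knockout arrays, against 2046, 2009 and 2299 on the wild-type arrays. Its knockout values varied widely, 7026 ± 2177 against 2118 ± 158 in wild-type cells (SD, n = 3 each), yet knockout array 2, the lowest, was still above every control. The fold was 3.21 and the log2 difference 1.68 (SE 0.22; adjusted p = 0.000381, limma). Lyl1, which can stand in for Tal1 in early progenitors, gave 3381, 2800 and 2980 on the knockout arrays and 3586, 3589 and 5307 on the wild-type arrays. The knockout values lay below the others, but by less than the spread set by wild-type array 3. The log2 difference was -0.43 (95% interval -0.85 to -0.002; adjusted p = 0.0875, limma), and it was -0.24 without wild-type array 3.

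Of the bridging proteins, Lmo2 fell and Ldb1 did not pass the test on the signals as deposited, while after quantile normalization and cyclic loess Ldb1 passed and Lmo2 did not. Lmo2, a LIM-only protein without DNA binding of its own, gave 3390, 2636 and 3110 on the knockout arrays, against 4453, 4384 and 4578 on the wild-type arrays. The control values were tight and all above the knockout values, with a 1.48-fold lower level in knockout cells and a log2 difference of -0.56 (SE 0.15; adjusted p = 0.013, limma). Without knockout array 2 the difference was -0.46 and the call was lost (adjusted p = 0.055). Ldb1, the LIM domain binding protein that brings distant complexes together by self-association, gave 1915, 1840 and 2008 on the knockout arrays and 1257, 1258 and 1729 on the wild-type arrays. The groups did not overlap, and the log2 difference was 0.46 (95% interval 0.06 to 0.85; adjusted p = 0.0542, limma). It passed without wild-type array 3, at 0.61 (adjusted p = 0.00698).

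Gfi1b is a zinc finger repressor that recruits the demethylase Kdm1a and is needed for red cell and platelet formation. Its signals were 2867, 2700 and 3274 on the knockout arrays, against 804, 714 and 1035 on the wild-type arrays. All knockout values were far above the controls, with a fold of 3.49 and a log2 difference of 1.80 (SE 0.18; adjusted p = 8.46e-05, limma). Nfe2, the tissue-specific subunit of a leucine zipper dimer with small Maf proteins, gave 3659, 2805 and 3391 on the knockout arrays and 4002, 3930 and 5522 on the wild-type arrays. As for Lyl1, wild-type array 3 was far above the other controls, and the log2 difference of -0.44 did not pass (95% interval -0.85 to -0.03; adjusted p = 0.0734, limma). It was -0.28 without wild-type array 3.

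Cbfa2t3, also called Eto2, is a corepressor that joins the Tal1 complex in immature cells. It was the member with overlapping groups, on all 4 of its probe sets. The brightest gave 1554, 1078 and 831 on the knockout arrays and 1391, 1460 and 1393 on the wild-type arrays. Knockout array 1 lay above all controls and the other 2 below them, and the log2 difference was -0.34 (95% interval -0.85 to 0.17; adjusted p = 0.233, limma). Without knockout array 1 it was -0.58 and passed (adjusted p = 0.0324), without knockout array 3 it was -0.13 (adjusted p = 0.662), and with the 4 probe sets averaged it was -0.055. The other 3 probe sets gave differences of -0.16, 0.13 and 0.15, with adjusted p of 0.443, 0.647 and 0.737 in limma.

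Over probe sets, 5 of 15 were called higher and 3 lower, where 28.1% and 15.7% of the 27023 probe sets tested were, which makes 8 called against 43.8%. All 5 that rose did so by 2-fold or more, against 22.4% of all probe sets, and 0 fell by that much, against 9.13%. Knockout signals lay wholly above the controls for 6 and wholly below them for 5, against 37.5% and 20.1%, or 11 of 15 in all against 57.6%. Both genes with more than 1 probe set and a call, Gata2 and Zfpm1, had all their probe sets on the same side. The sizes differed within a gene, however: -0.43 and -0.92 for Gata2, and 1.87 and 2.44 for Zfpm1, on the log2 scale. Adjusted over probe sets, the brighter Gata2 one had an adjusted p = 0.0497 (limma).

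**Figure D2:**
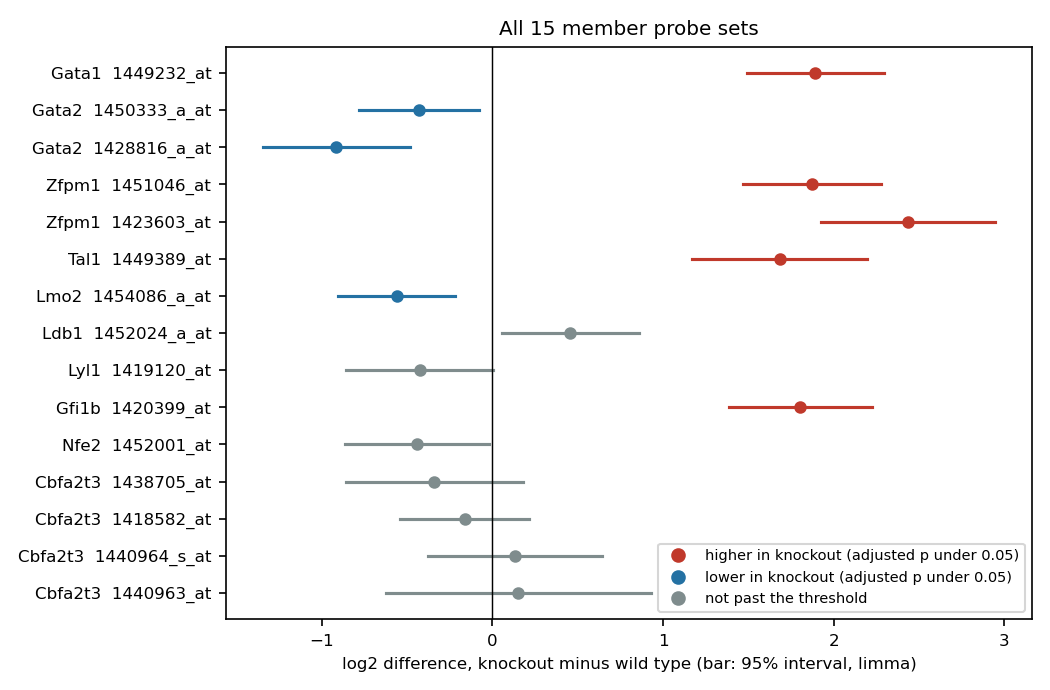
Log2 difference (knockout minus wild type, horizontal axis) of each of the 15 member probe sets, with 95% intervals from limma fitted on 27023 probe sets; red marks probe sets called higher, blue lower and grey those past no threshold. The 5 red probe sets lie between 1.68 and 2.44, and the 3 blue ones between -0.92 and -0.43.

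Differences between a pair of genes on the same array remove the scaling factor of that array. Their size depends on the probes, so just their change between genotypes can be read. Log2 Gata1 minus log2 Gata2 was 2.24, 2.19 and 2.32 on the knockout arrays, against -0.37, -0.25 and 0.39 on the wild-type arrays. The pair moved apart by 2.32 on the log2 scale, or 5.01-fold, and by 2.81 with the dimmer Gata2 probe set. Log2 Tal1 minus log2 Lyl1 was 1.44, 0.78 and 1.25 on the knockout arrays, against -0.81, -0.84 and -1.21 on the wild-type arrays. This change was 2.11, or 4.31-fold. In these pairs no knockout array overlapped a wild-type array, and the values are given without a test because the genes were chosen with earlier results known.

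**Figure D3:**
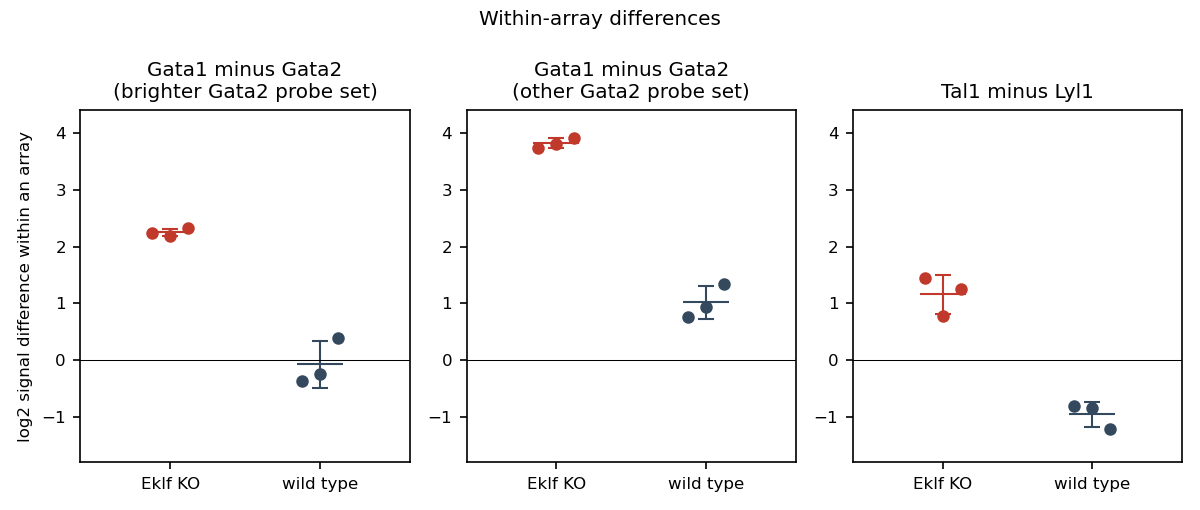
Within-array log2 signal differences (vertical axis) for Gata1 minus Gata2, with either Gata2 probe set, and for Tal1 minus Lyl1; points are arrays, lines are means and bars are 1 SD (n = 3). Knockout arrays, on the left, lie above wild-type arrays in each panel, with means higher by 2.32, 2.81 and 2.11.

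The arrays differ in the shape of their signals, so the members were also compared after other scalings. On the signals as deposited the median of all genes stood at a log2 difference of 0.14. Median centring moved it to -0.68, quantile normalization to -0.015 and cyclic loess to 0.004. Gata1, Zfpm1, Tal1 and Gfi1b were called higher under each of these, with the lowest values after median centring, 1.08 for Gata1, 1.06 for Zfpm1, 0.87 for Tal1 and 0.99 for Gfi1b. Relative to the median of all genes they were higher by 1.55 to 2.13 under these 4 scalings. Gata2 and Lmo2 stayed below 0 but lost their calls after quantile normalization (-0.30 and -0.32) and cyclic loess (-0.25 and -0.33), whereas the dimmer Gata2 probe set was called lower under each, at -1.18 (quantile), -1.09 (cyclic loess) and -1.73 (median centring). Ldb1 passed after quantile normalization (0.65, adjusted p = 0.0145) and cyclic loess (0.68, adjusted p = 0.0134) and was below 0 after median centring (-0.36), where it was still 0.32 above the median of all genes. Lyl1, Nfe2 and Cbfa2t3 were called lower after median centring alone among these scalings, at -1.24, -1.25 and -1.16.

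**Figure D4:**
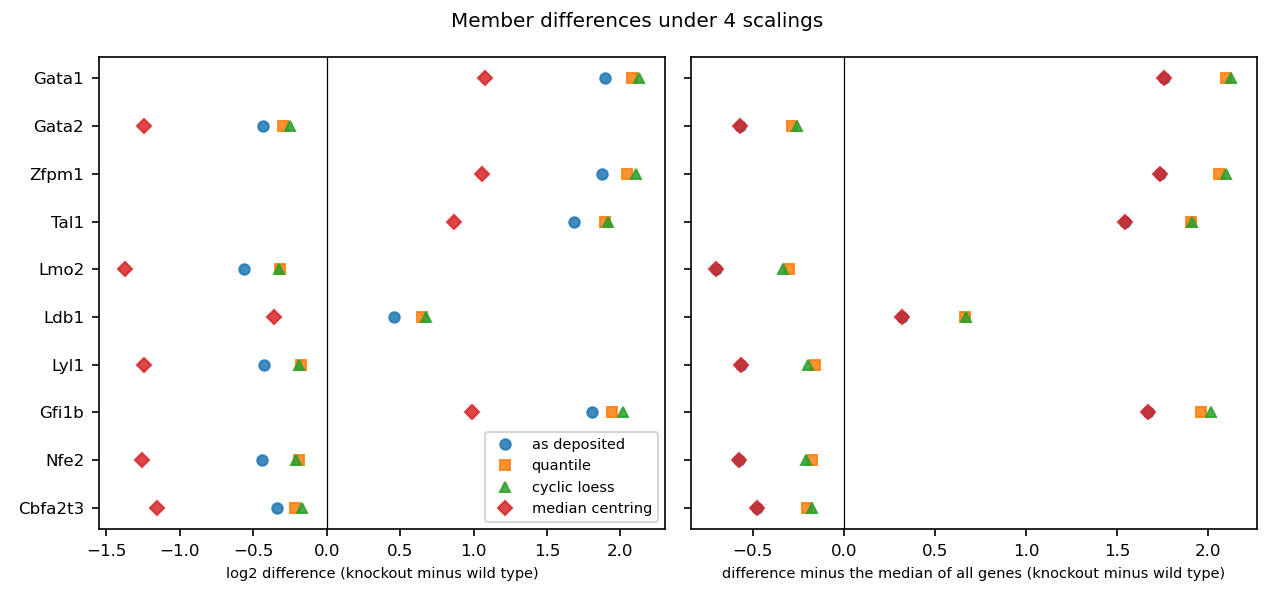
Log2 differences (knockout minus wild type) of the 10 members under 4 scalings, as such on the left and minus the median of all genes on the right, where values as deposited and after median centring coincide. Gata1, Zfpm1, Tal1 and Gfi1b stay right of 0 in both panels, and Ldb1 crosses 0 on the left after median centring (-0.36).

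Partners and corepressors of the complex were mixed, with 12 of 32 tested genes lower and 6 higher (median -0.37, beside 0.14 for all genes). These are 37.5% and 18.8% of the list, where 20.8% of all genes tested were called lower and 27.9% higher. Cbfb, the partner of Runx1, was 3.62-fold lower (log2 difference -1.85, SE 0.19; adjusted p = 8.95e-05, limma). Lmo4, a LIM-only protein that also binds Ldb1, fell by 1.08 and the deacetylase Hdac1 fell by 0.69 on the log2 scale. Bach2, which pairs with small Maf proteins, fell by 2.70, Brd3, a bromodomain protein, fell by 1.10 and Sp1, a CACCC and GC box factor, fell by 0.79, but another probe set of each was called higher, at 1.02, 0.95 and 1.14. A further one of Bach2 and of Sp1 was called lower, at -2.92 and -1.06. The remaining Brd3 probe sets did not pass, at -0.34 and -0.10. These 6 had the smallest p of the list. The E protein Tcf3, which pairs with Tal1, lay outside that rule and fell by 1.07. The small Maf genes Mafg and Mafk, whose products pair with Nfe2, also lay outside it and rose by 0.73 and 0.55. Tcf3, Mafg and Mafk were chosen after their values were seen, and their other probe sets were not compared.

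Genes listed as paralogs of the members or as competing factors were lower in 11 of 20 tested (55%, against 20.8% of all genes). Another 3 were higher (15%, against 27.9%), and the list median was -0.95. Gfi1, the paralog of Gfi1b used in lymphoid and myeloid cells, gave 305, 420 and 403 on the knockout arrays, against 2116, 2114 and 2676 on the wild-type arrays. This was 6.14-fold lower (log2 difference -2.62, SE 0.19; adjusted p = 1.88e-05, limma), opposite in direction to Gfi1b. Spi1, the myeloid and B cell factor PU.1 that binds and inhibits Gata1, gave 922, 849 and 1100 on the knockout arrays and 3105, 3021 and 4542 on the wild-type arrays, a log2 difference of -1.88. The Ets factors Fli1 and Erg fell by 2.30 and 2.47, Id2, an inhibitor of E proteins, fell by 1.79 and the homeobox gene Hhex fell by 2.04. Lymphoid, mast cell, neutrophil, and stem and progenitor markers were mostly lower too, as given above. Megakaryocyte, endothelial, hepatocyte, macrophage and erythroid markers were mostly higher. The part of any of these cells in the values of this list was not tested. Gata6 and Gata4, which are expressed in liver and heart and were named after their values were seen, were higher by 2.17 and 1.08. Their wild-type means, 113 and 116, lay near the filter signal of 98.6, and Gata4 passed narrowly (adjusted p = 0.04, limma). Hepatocyte, endothelial and macrophage markers were among those higher, and their part in the Gata6 and Gata4 values was not tested.

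Genes known as activated by Gata1 were higher in 16 of 19 tested (84.2%, against 27.9% of all genes) and lower in 0 (median 1.99). Genes known as repressed by it were lower in 13 of 14 (92.9%, against 20.8% of all genes) and higher in 0 (median -1.40). Alas2, which starts haem synthesis in red cells, gave 15522, 21438 and 26528 on the knockout arrays, against 1241, 1451 and 1380 on the wild-type arrays. Abcg2, a porphyrin exporter, rose by 3.00, Uros, a haem synthesis enzyme, by 2.65, Kel, a blood group protein, by 2.58, Trim10 by 2.40 and Rhag, a membrane partner of the Rh proteins, by 1.99 on the log2 scale. Ermap (0.36), Klf1 (-0.38) and the mitochondrial iron importer Slc25a37 (0.07) did not pass and are named for that. On the repressed side, Kit, the stem cell factor receptor, gave 985, 1407 and 1343 on the knockout arrays and 4065, 3907 and 4287 on the wild-type arrays. Myb, a factor of immature cells, fell by 2.05, Cd34, a surface protein of progenitors, fell by 2.07 and Vim, an intermediate filament gene, fell by 1.56. Hhex and Spi1 belong to this list too, and Meis1, also named for it, was the gene that did not pass (-0.25). The marker lists given above hold many of the same genes: 7 of 9 tested erythroid markers are in the activated list, and 4 of 10 stem and progenitor markers are in the repressed list, so they are not a separate observation. These lists were written with earlier results of these data known, so their direction is no independent evidence on Gata1.

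**Figure D5:**
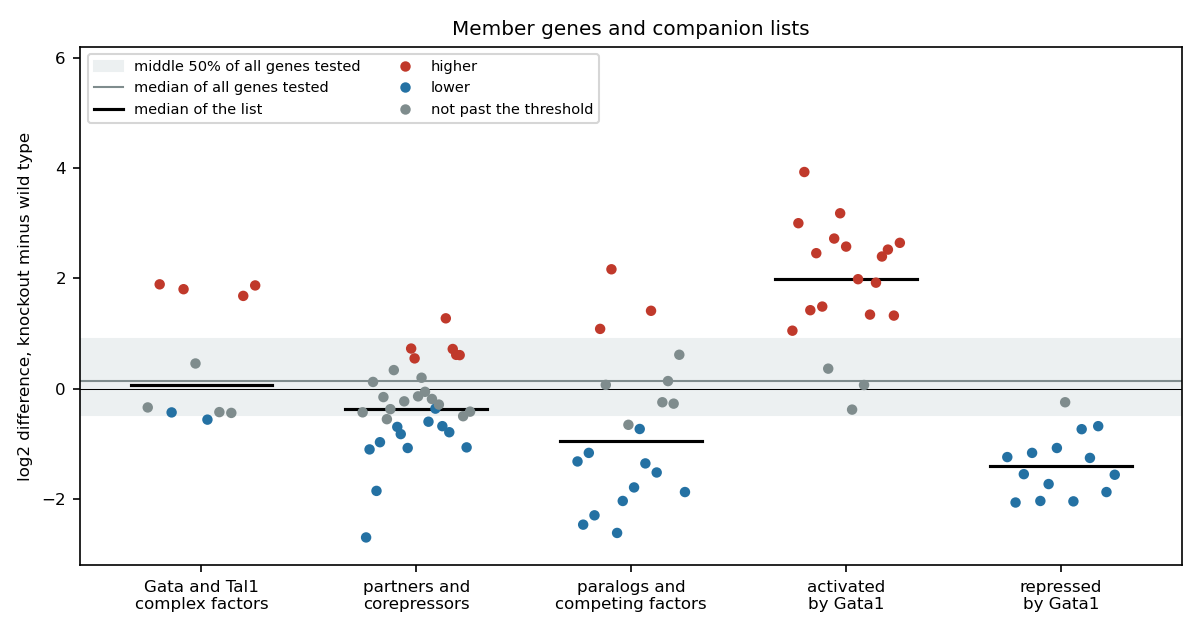
Log2 differences (knockout minus wild type) of the 10 members and of the genes tested in 4 companion lists; each point is a gene, coloured by its call, black lines are list medians and the grey band is the middle 50% of all 12799 genes tested. The list activated by Gata1 has its median at 1.99 and the repressed list at -1.40, and the members split into 4 genes at 1.68 to 1.89 and 6 genes between -0.56 and 0.46.

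The genes most like Gata1 over the 6 arrays, by Pearson correlation of log2 signals, were Krt14, Tspan18, Agpat3, Sptb and Cpox, with r of 0.998 to 0.999. Sptb encodes beta spectrin of the red cell skeleton and Cpox an enzyme of haem synthesis; they were higher by 3.21 and 1.77 in knockout cells. Krt14, a keratin, averaged 213 ± 8.49 in knockout and 73.5 ± 12.1 in wild-type cells (SD, n = 3 each), and the wild-type mean lay under the filter. Most like Gata2 were Ugp2, Slc35b3, Zbtb18, Csgalnact2 and Morc3, with r of 0.993 to 0.997 and differences from -1.41 to -0.58. Since the arrays form separate groups, r mostly restates the difference between genotypes: 112 of 12089 genes had r over 0.99 with Gata1 and 9 with Gata2.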

How the data were processed

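Gene expression was measured in 6 samples with 1 single-colour Affymetrix array each, from 10 micrograms of total RNA. Per the submitters' processing notes, the authors made the deposited intensity values by MAS5 in Expression Console; no versions are stated. MAS5 scales each array to 1 trimmed mean, which leaves medians free to differ.

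Probe sets were named from the platform annotation: 34958 of 45101 list 1 gene, 932 several and 9211 are not listed. Symbols were updated to RefSeq through Entrez identifiers for 34754. The 64 control probe sets were left out of tests. The floor was a signal of 1, applied to 303 values before taking log2. Genes at their brightest probe set, with a mean log2 signal at or above the 40th percentile of all probe sets (6.62, a signal of 98.6), entered a two-sided limma fit (version 3.58.1 in R 4.3.3; eBayes took a trend of variance with signal); a second fit used all probe sets above this filter. Benjamini-Hochberg adjustment ran over everything tested in a fit. Klf1 was also tested by exact permutation. The procedure was tested on simulated data with independent values, few changed genes and no shift between arrays. Changes as widespread as those seen here were thus not covered. No pair of arrays held identical values. Arrays of a group are called independent by the labels, and with 3 per group their number limits precision. The limma p-values weigh the difference between genotypes against the spread within the groups of these samples. That spread is drawn towards a trend over everything tested.

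The members, lists and rules were chosen with earlier results of these data known. Named were all members, Klf1, the 6 genes of each companion list with the smallest p, and the 5 genes most correlated with Gata1 and with Gata2; exceptions, all chosen after their values were seen, are the genes of the activated and repressed lists that did not pass and those marked in the text. Other probe sets of companion genes were compared only for the 6 with the smallest p in each list, and so not for the exceptions. The companion lists held 34, 26, 21 and 14 genes and overlap in part. Alternatives were quantile normalization, cyclic loess, median centring, offsets of 16 and 64, other filters, variance models, array weights, the mean of probe sets, the replicate number as a block, stricter thresholds and each array left out. Figures used matplotlib 3.10.9 in Python 3.11.15.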

Additional observations from a re-analysis of the deposited data

How the results depend on the processing

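Gata1, Zfpm1, Tal1 and Gfi1b kept their call under all 18 alternative fits, at log2 differences of 1.08 to 2.13, 1.06 to 2.16, 0.87 to 1.93 and 0.99 to 2.02, while Gata2 kept its call in 9 and Lmo2 in 15. The number of member genes called higher was 4 to 5 and that called lower 0 to 2 with 1 array left out. The count called lower was 0 by quantile normalization, 0 by cyclic loess, 5 by median centring, 1 without a variance trend, 1 with the replicate block, 0 at an adjusted p under 0.01 and 0 at a 2-fold change. Member probe sets called lower numbered 1, 1, 8 and 1 under quantile normalization, cyclic loess, median centring and no variance trend, 1 at an adjusted p under 0.01, 0 at a 2-fold change and 1 to 3 with 1 array left out. Over all genes, 3571 were called higher and 2661 lower as deposited. Quantile normalization gave 2248 higher and 2702 lower, cyclic loess 2292 higher and 2658 lower, median centring 1085 higher and 6133 lower, a filter at the 60th percentile 2133 higher, an adjusted p under 0.01 gave 2104 higher and 1672 lower, and a 2-fold change left 1404 lower. The share of calls that were higher was thus 57.3% as deposited, 45.4% with quantile normalization, 46.3% with cyclic loess and 15% with median centring. The cause of these shifts was not tested, beyond the stricter thresholds and filter, which call or test fewer genes.

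Ldb1 was -0.358 after median centring. Of the Cbfa2t3 probe sets, the dimmest was -0.589 after quantile normalization, -0.664 after median centring, -0.598 after cyclic loess, -0.014 with array weights and, with 1 array left out, -0.006 (without wild-type replicate 2) to 0.38. The next dimmest was -0.083, -0.682 and -0.041 under the same first 3 settings and, with 1 array left out, -0.029 (without wild-type replicate 3) to 0.238. The Klf1 difference was -1.195 after median centring and passed there (adjusted p = 0.0128); with 1 array left out it ran from -0.679 to -0.013. Calls in each companion list stayed within 1.5 times their number under all 18 alternatives. Replicate numbers are shared between the groups, but same-numbered arrays deviated together only weakly (r of 0.036 to 0.09), so the numbers were not taken to pair samples. The replicate block called 6277 genes against 6232 without it, and the call of Gata2 was lost in it (adjusted p = 0.0665); each knockout array correlated best with the wild-type array of its own number.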

Other observations

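Wild-type array 3 held the highest wild-type signal for 8 of the 10 members, where it did so for 62.4% of the 3580 genes at least as bright on average as the dimmest member and for 42.2% of all genes tested; the members' count is near the share of the brighter genes. Knockout array 2 held the lowest knockout signal for 7 of the 10 members, where it did so for 35.3% of those brighter genes. Klf1 followed the same arrays, with its highest wild-type value, 4030, on wild-type array 3 and its lowest knockout value, 1391, on knockout array 2.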
